A study of Mus musculus with 16 samples.

Results

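The 8 genes described here are mt-Cytb, mt-Co1, mt-Co2, mt-Co3, mt-Atp6, mt-Atp8, mt-Rnr1 and mt-Rnr2, that is, the mitochondrially encoded mRNAs of respiratory complexes III to V and both mitochondrial ribosomal RNAs. They were picked by symbol from count files that list 43472 genes, of which 37 are encoded by mitochondrial DNA. RNA was read in 16 mouse brain libraries, 4 in each of 4 groups. The groups are Prepl knockout mice, the wild types kept as their controls, PWS-IC deleted mice and a second, separate set of wild types for the deletion. The study looked for molecular features shared by a congenital myasthenic syndrome and Prader-Willi syndrome. The product of Prepl, prolyl endopeptidase-like, is a serine hydrolase, and the PWS-IC is the imprinting centre that keeps the paternal genes of the Prader-Willi region active. Age, strain, brain region, the parent that passed on the deletion, and whether a replicate is 1 animal or a pool do not appear in the sources used here. P-values therefore measure the spread between these libraries. Sex, read from Xist and Y-linked genes, was male in all 4 Prepl knockout libraries, against 3 female and 1 male (replicate 4) libraries of their wild types. Both the PWS-IC deleted group and its wild types held 2 female and 2 male libraries.

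Mitochondrial DNA is transcribed as long precursors that are cut apart, mostly at the tRNAs that lie between the genes. All 8 genes are read from the same strand so they start in precursors of that strand, after which each RNA is cut, tailed and degraded at its own rate. Cytochrome b (mt-Cytb) is the single subunit of complex III made inside mitochondria. The mt-Co1, mt-Co2 and mt-Co3 mRNAs encode the catalytic core of cytochrome oxidase, complex IV. The mt-Atp6 and mt-Atp8 proteins sit in the membrane part of ATP synthase, complex V. The RNAs of the small and large subunits of the mitochondrial ribosome come from mt-Rnr1 and mt-Rnr2. Brain depends strongly on this chain for its ATP, and all the other subunits of complexes III to V are encoded in the nucleus.

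The libraries are Lexogen QuantSeq, a kit that primes on poly(A) and reads near the 3′ end of an RNA, so the 3′ ends of mRNAs are what the counts mainly sample. The ends of the 6 coding genes are printed here, 60 bases each, from GENCODE M21 transcripts on GRCm38, plus strand, with the letters of the last codon in capitals. They lie at chrM:15229-15288 for mt-Cytb, chrM:6813-6872 for mt-Co1, chrM:7637-7696 for mt-Co2, chrM:9331-9390 for mt-Co3, chrM:8548-8607 for mt-Atp6 and chrM:7910-7969 for mt-Atp8.
mt-Cytb: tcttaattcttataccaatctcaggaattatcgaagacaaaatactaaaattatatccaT
mt-Co1: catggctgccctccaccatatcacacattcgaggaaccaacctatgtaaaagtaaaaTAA
mt-Co2: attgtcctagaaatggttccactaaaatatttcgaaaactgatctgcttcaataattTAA
mt-Co3: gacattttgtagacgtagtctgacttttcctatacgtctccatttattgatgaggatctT
mt-Atp6: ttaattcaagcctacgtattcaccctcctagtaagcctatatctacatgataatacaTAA
mt-Atp8: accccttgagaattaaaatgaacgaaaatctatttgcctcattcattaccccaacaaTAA
Among these 6 genes, mt-Cytb (1144 bases) and mt-Co3 (784 bases) stop after the T of an unfinished stop codon, which in mammals the poly(A) tail completes. The mt-Co1, mt-Co2, mt-Atp6 and mt-Atp8 genes end in a whole TAA.

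mt-Atp8 has no 3′ end of its own: it is carried with mt-Atp6 on 1 mRNA whose tail follows mt-Atp6. The end printed for mt-Atp8 therefore lies inside that mRNA. Counts of mRNAs in this report go by gene, so this mRNA enters under both names. The reading frames share 43 bases, chrM:7927-7969, shown in capitals after the 30 bases before them (chrM:7897-7969, plus strand).
mt-Atp8 into mt-Atp6: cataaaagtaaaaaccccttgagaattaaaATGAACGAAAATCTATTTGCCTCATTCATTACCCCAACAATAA
A read inside the capitals belongs to both genes, and how such reads were counted is not given in the sources used here. mt-Atp6 and mt-Co3 share 1 base, and 3 bases of mt-Co1 lie opposite the tRNA gene mt-Ts1.

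The rRNAs carry only short A tails, as background, and an A run inside an RNA is another place where a poly(A) primer can anneal. mt-Rnr2, at chrM:1094-2675, holds 4 runs of 6 or more A and mt-Rnr1, at chrM:70-1024, holds none. The longest run of mt-Rnr2, 7 bases in capitals, lies 1181 bases before its end (chrM:1463-1519, plus strand).
mt-Rnr2: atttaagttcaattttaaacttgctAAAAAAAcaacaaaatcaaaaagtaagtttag
Among the 6 mRNAs, mt-Co1 holds 1 such run, also of 7 bases, and the other 5 hold none.

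Copies of mitochondrial DNA in the nuclear genome could take reads from some of these genes. Searched among annotated transcripts, 4 of the 8 genes, mt-Co1, mt-Co2, mt-Co3 and mt-Atp6, had a nuclear copy of at least 100 bases and 95% identity in the count files. On chromosome 1, Gm28661 matches mt-Co2 over 681 bases, Gm10925 matches mt-Atp6 over 678 bases and Gm28437 matches mt-Co3 over 783 bases, each without a mismatch. Gm29216 there matches the last 483 bases of mt-Co1 with 1 substitution, A1066T, counted from the first base of mt-Co1. Gm13340 and Gm13341 on chromosome 2 match mt-Co1 and mt-Co2 at 97.6% and 95.9%. Of the reads assigned to a gene or its copies, copies took 0.664% to 1.41% for mt-Co1, 1.64% to 4.40% for mt-Co2, 1.21% to 7.03% for mt-Co3 and 0.577% to 1.66% for mt-Atp6 in the 16 libraries. Reads with more than 1 alignment, 25.2% to 30.9% of tabled reads from all sources, were counted for no gene. How many of them came from these 4 genes is not known, so their full loss to copies is not known either. For mt-Cytb, mt-Atp8, mt-Rnr1 and mt-Rnr2 no copy passed the limit. The nearest to mt-Cytb was Gm11410 on chromosome 4 with 81 mismatches over 1142 aligned bases. Both ends are printed, with the 6 differing bases of the last 90 in capitals (mt-Cytb at chrM:15198-15287, Gm11410 at chr4:80005042-80005131, both plus strand), because mt-Cytb carries the strongest result and its end differs from the copy.
mt-Cytb: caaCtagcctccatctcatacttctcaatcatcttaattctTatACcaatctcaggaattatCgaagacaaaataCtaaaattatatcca
Gm11410: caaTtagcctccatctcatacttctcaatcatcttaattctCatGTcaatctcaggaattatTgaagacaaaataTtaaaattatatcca

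Each library had 3477624 to 5852716 reads in genes, and levels are given in CPM, reads in a gene scaled to 1000000 of these. The labels held for the altered genes. Prepl averaged 1.64 ± 0.453 CPM in Prepl knockouts and 34.8 ± 1.35 CPM in their wild types, and in the PWS-IC comparison Ndn averaged 4.30 ± 1.90 CPM in deleted mice and 556 ± 11.1 CPM in their wild types (SD, n = 4 each). Snrpn averaged 29.2 ± 4.95 CPM in PWS-IC deleted mice and 344 ± 14.5 CPM in their wild types. All 5 neuron and all 5 astrocyte markers had reads in every library, with a summed neuron level of 4559 to 5121 CPM. All 8 mitochondrial genes passed the filter on low counts in every comparison. In bulk brain RNA, fewer mitochondria-rich cells and less mitochondrial RNA per cell cannot be told apart.

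Loss of Prepl went with more of the mitochondrial mRNAs, and neither rRNA was called. Of the 6 mRNAs, mt-Cytb, mt-Co2, mt-Atp6 and mt-Co3 (4 in all) rose in Prepl knockouts, by 1.24 to 1.66 times, and none of the 8 genes fell. The background is 26 higher calls among 13722 genes tested, 0.189%, and 10 lower ones, 0.0729%. The same 4 genes had groups that did not overlap with the knockouts above, against 1.60% of genes tested. All calls are by edgeR's quasi-likelihood test with Benjamini-Hochberg adjustment over all genes tested at a threshold of 0.05. The median log2 fold change was 0.29 over the 8 genes and 0.40 over the 6 mRNAs, beside 0.0003 over all genes tested.

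mt-Cytb, of complex III, changed most. It stood at 11730.4, 12673, 12760.1 and 15179.9 CPM in the 4 Prepl knockout libraries, against 7527, 7913, 8409 and 8434 CPM in their wild types. The lowest knockout library lay well above the highest wild type, which was the male one. The means were 13086 ± 1472 CPM in knockouts and 8071 ± 435 CPM in wild types (SD, n = 4 each), a log2 fold change of 0.73 ± 0.0767 (SE, adjusted p = 7.42e-06, edgeR). By p it ranked 2 among all genes tested in this comparison.

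Of the cytochrome oxidase mRNAs, mt-Co2 was called most firmly. Its levels were 3929.8, 4598, 4654 and 4862 CPM in Prepl knockouts, against 3200.3, 3069, 3333 and 3501 CPM in their wild types. The groups did not overlap, and the log2 fold change was 0.50 ± 0.0741 (adjusted p = 0.00157, edgeR). mt-Co3 stood at 3258, 3647, 3618 and 3852 CPM in knockouts, against 2858, 2949.8, 3081 and 2971 CPM in wild types. Again every knockout was above every wild type, at a log2 fold change of 0.31 ± 0.0675 (adjusted p = 0.0417, edgeR). mt-Co1, which encodes the largest subunit of the enzyme, averaged 2374 ± 167 CPM in knockouts and 2124 ± 152 CPM in wild types. Its groups overlapped and it was not called, at 0.20 ± 0.0705 (adjusted p = 0.36, edgeR).

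The ATP synthase mRNA gave a like picture through mt-Atp6. Its levels were 4809, 5966, 5847 and 6568 CPM in Prepl knockouts, against 4044, 4273, 4360.1 and 4409 CPM in their wild types. The groups were apart, with a log2 fold change of 0.48 ± 0.0792 (adjusted p = 0.00423, edgeR). mt-Atp8 averaged 173 ± 23.1 CPM in knockouts and 148 ± 14.6 CPM in wild types. It was not called at 0.27 ± 0.0905 (adjusted p = 0.313, edgeR).

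Both rRNAs overlapped between the groups. mt-Rnr1 had 8897, 11332, 11381 and 11806 CPM in Prepl knockouts, against 9485, 9945, 10581 and 13382 CPM in their wild types. mt-Rnr2 had 29617, 33004, 37543 and 38876 CPM in knockouts, against 30913, 31473, 33602 and 40988 CPM in wild types. The log2 fold changes were 0.04 ± 0.0982 for mt-Rnr1 and 0.06 ± 0.0947 for mt-Rnr2 (adjusted p = 0.945 and 0.901, edgeR). The direction of these small rRNA values turned under some other settings, so none is given.

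Sex moves with genotype in this comparison, because all 4 knockout libraries and 1 of the 4 wild-type libraries are male. Among the wild types the male library was highest for mt-Cytb, mt-Co1, mt-Co2 and mt-Atp6, at 8434, 2302, 3501 and 4409 CPM. For mt-Co3, at 2971 CPM, it was not highest, and for mt-Atp8, at 131 CPM, it was lowest. It had less mt-Cytb, mt-Co2, mt-Co3 and mt-Atp6 than any of the 4 male knockouts. That follows from the groups not overlapping for these genes, so it adds nothing on sex. With sex as a term in this comparison, the knockout effect sets the 4 knockouts against the 1 male wild type. That fit cannot separate genotype from a single library, so only sizes are given. They were log2 0.66 for mt-Cytb, 0.40 for mt-Co2, 0.43 for mt-Atp6 and 0.30 for mt-Co3. In a fit of all 16 libraries with a sex term, added after the data had been seen, mt-Cytb and mt-Co2 were called. mt-Atp6 and mt-Co3 lost their calls there. mt-Co3 also lost its call without replicate 2, 3 or 4 of the wild types (0.31, 0.33 and 0.32, adjusted p = 0.221, 0.106 and 0.0609) or of the knockouts (0.30, 0.31 and 0.28, adjusted p = 0.127, 0.138 and 0.111, edgeR).

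**Figure D1:**
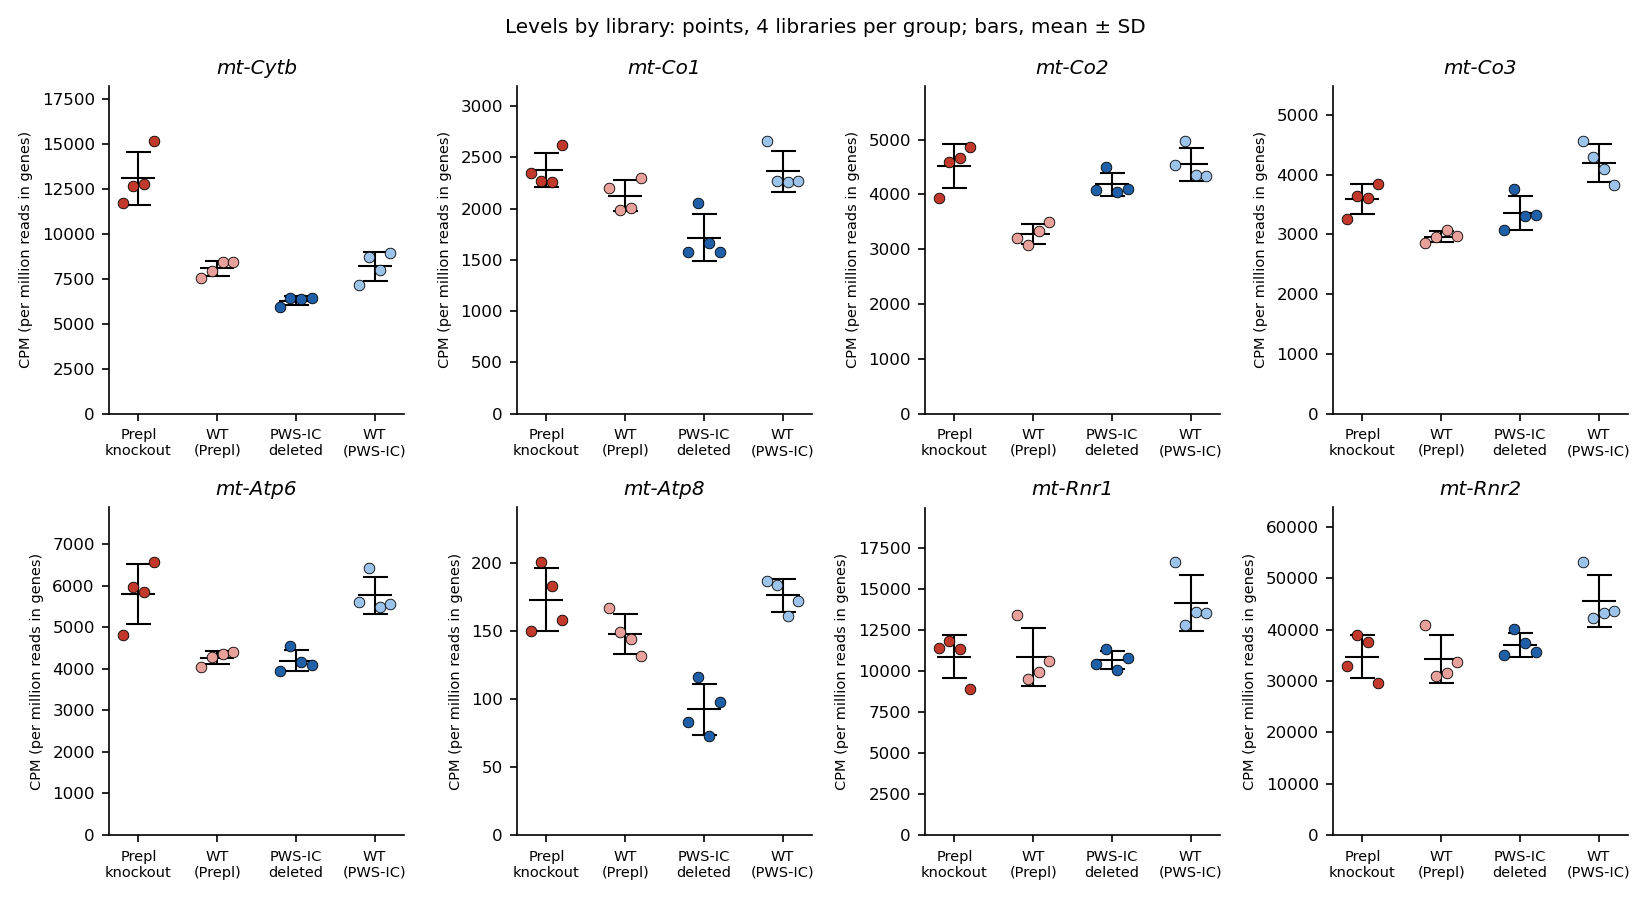
Levels of the 8 genes in CPM (reads scaled to 1000000 reads in genes) in each of the 16 libraries, with 1 panel per gene and its own linear axis from 0. Points are libraries, horizontal bars the mean and whiskers the SD over 4 libraries. mt-Cytb, mt-Co2, mt-Co3 and mt-Atp6 lie higher in every Prepl knockout library than in every one of its wild types, and all genes but mt-Co2 lie lower in every PWS-IC deleted library than in every one of its wild types.

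In the PWS-IC deleted brain most of these genes were lower, rRNAs included. Of the 8 genes 7 fell, 5 mRNAs and both rRNAs, by 0.29 to 0.92 on the log2 scale, and mt-Co2 was not called. The background is 212 lower calls among 13636 genes tested, 1.55%. The same 7 genes had groups that did not overlap with the deleted mice below, against 5.06% of genes tested. The median log2 fold change of the 8 genes was -0.39, beside -0.01 over all genes tested.

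mt-Atp8 changed most, with 72.8, 82.8, 97.5 and 116 CPM in PWS-IC deleted mice, against 161, 172, 184 and 187 CPM in their wild types. The highest deleted library lay below the lowest wild type, and the log2 fold change was -0.92 ± 0.118 (SE, adjusted p = 0.000117, edgeR). mt-Atp6, on the same mRNA, stood at 3954, 4559, 4174 and 4095 CPM in deleted mice, against 5609, 6429, 5485 and 5548 CPM in wild types. It fell by 0.45 on the log2 scale (SE 0.0742, adjusted p = 0.0013, edgeR), with the groups apart.

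mt-Cytb stood at 5922, 6412, 6364 and 6445 CPM in PWS-IC deleted mice, against 7133, 8707, 7978 and 8921 CPM in their wild types. The deleted libraries were close to one another and all below the wild types, at a log2 fold change of -0.37 ± 0.0715 (adjusted p = 0.00419, edgeR).

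Within complex IV, mt-Co1 and mt-Co3 fell and mt-Co2 was not called. mt-Co1 stood at 1579, 2050.4, 1662 and 1577 CPM in PWS-IC deleted mice, against 2664, 2266, 2259 and 2269.8 CPM in their wild types. It fell by 0.45 on the log2 scale (SE 0.0908, adjusted p = 0.00602, edgeR). mt-Co3 averaged 3367 ± 286 CPM in deleted mice and 4196 ± 315 CPM in wild types (log2 -0.31 ± 0.0780, adjusted p = 0.0256, edgeR). mt-Co2 had 4049.9, 4081, 4098 and 4499.8 CPM in deleted mice, against 4332, 4357, 4537 and 4981 CPM in wild types. These groups overlapped through 1 deleted library, replicate 2, and mt-Co2 was not called at -0.12 ± 0.0721 (adjusted p = 0.422, edgeR).

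The small-subunit rRNA mt-Rnr1 had 10429, 11341, 10015 and 10766 CPM in PWS-IC deleted mice, against 16613, 12759, 13598 and 13517 CPM in their wild types. It fell by 0.40 on the log2 scale (SE 0.0767, adjusted p = 0.00419, edgeR). The large-subunit rRNA mt-Rnr2 had 34989, 40173, 37469 and 35559 CPM in deleted mice, against 53155, 42315, 43328 and 43646 CPM in wild types. Its groups were apart, with a log2 fold change of -0.29 ± 0.0717 (adjusted p = 0.022, edgeR). Without replicate 1 of the wild types, the highest library for both rRNAs and for mt-Co1, mt-Rnr2 was at -0.21 and mt-Co3 at -0.27, no longer called (adjusted p = 0.0576 and 0.0761, edgeR). Without replicate 1, 3 or 4 of the deleted mice, the same pair lost its calls, with mt-Rnr2 at -0.27, -0.29 and -0.27 (adjusted p = 0.0726, 0.0648 and 0.0633, edgeR) and mt-Co3 at -0.28, -0.29 and -0.30 (adjusted p = 0.0951, 0.0822 and 0.0629, edgeR).

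Other measures differed between the PWS-IC groups. Reads aligned outside genes made up 17.7% to 20.1% of tabled reads in PWS-IC deleted mice and 11.4% to 13.7% in their wild types, with no overlap. With that share as a covariate none of the 8 genes was called (adjusted p = 0.999 for each, edgeR), and mt-Cytb at 0.17 and mt-Co2 at 0.12 changed sign. Since the share separates the groups completely, it and the deletion cannot be told apart. The 5 red cell markers (4 globin genes and Alas2) summed to 1203 to 1629 CPM in deleted mice and 1796 to 3970 CPM in wild types, all 5 read in every library. Their sum was lower still in Prepl knockouts (628 to 833 CPM) and Prepl wild types (660 to 1145 CPM). The 5 meningeal fibroblast markers summed to 291 to 314 CPM in deleted mice and 377 to 630 CPM in wild types, and the 5 choroid plexus markers to 394 to 1696 CPM in deleted mice and 1393 to 2150.4 CPM in wild types. For the meningeal markers the deleted mice were the group apart, with 482 to 587 CPM in Prepl knockouts and 448 to 583 CPM in Prepl wild types. The 5 astrocyte markers summed to 693 to 742 CPM in deleted mice and 755 to 821 CPM in wild types, again with no overlap. Neuron markers summed to 4559 to 4785 CPM in deleted mice and 4648 to 4928 CPM in wild types, which overlapped. The 5 oligodendrocyte markers summed to 63.8 to 73.4 CPM in deleted mice and 65.7 to 72.6 CPM in wild types, which overlapped. Mog, 1 of these 5, was at 0 in both groups. The part of these cell types in the lower mitochondrial levels was not tested.

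**Figure D2:**
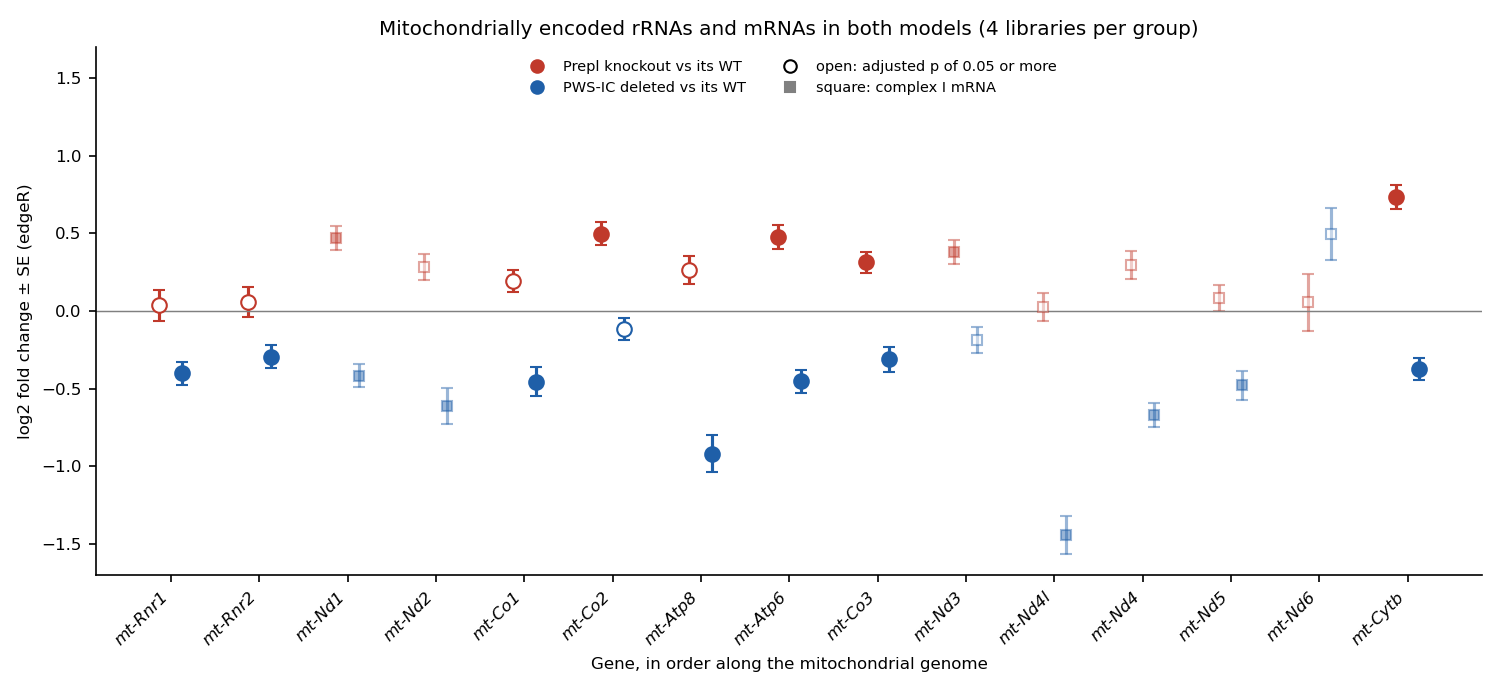
Log2 fold change with its SE for mitochondrially encoded rRNAs and mRNAs, in order along the mitochondrial genome, for Prepl knockout against its wild types (red) and PWS-IC deleted against its wild types (blue), edgeR, 4 libraries per group. Circles are the 8 genes described here and squares complex I mRNAs; filled symbols passed an adjusted p of 0.05. mt-Cytb is at 0.73 and -0.37, and both rRNAs are near 0 in red and at -0.40 and -0.29 in blue.

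A contrast over all 16 libraries, the Prepl effect minus the PWS-IC effect, was called above 0 for all 6 mRNAs and neither rRNA, that is, for 6 of the 8 genes, against 70 such calls among 14392 genes tested, 0.486%. The difference was 1.18 ± 0.161 on the log2 scale for mt-Atp8 and 1.10 ± 0.107 for mt-Cytb (adjusted p = 3.74e-05 and 3.33e-08, edgeR). For mt-Atp6 it was 0.93 ± 0.114 (adjusted p = 5.59e-06, edgeR). The complex IV mRNAs differed by 0.65 ± 0.121 (mt-Co1), 0.61 ± 0.107 (mt-Co2) and 0.62 ± 0.105 (mt-Co3), with adjusted p of 0.00411, 0.0019 and 0.00127 (edgeR). The rRNAs did not pass, with mt-Rnr1 at 0.43 ± 0.136 and mt-Rnr2 at 0.35 ± 0.127 (adjusted p = 0.155 and 0.24, edgeR). A miss at this threshold leaves a difference of that size possible for the rRNAs. Without replicate 1 of the Prepl wild types, mt-Rnr1 at 0.56 and mt-Rnr2 at 0.45 were called (adjusted p = 0.0135 and 0.0444, edgeR). mt-Rnr1 at 0.53 was also called without replicate 4 of the Prepl knockouts (adjusted p = 0.0498, edgeR). The PWS-IC wild types lay below all other libraries in the share of reads outside genes. A fit with that share as a covariate, which left 14 calls among all genes tested, therefore cannot fully separate it from this contrast. In that fit mt-Cytb at 0.67 was the 1 mRNA still called (adjusted p = 0.0474, edgeR). mt-Co1, mt-Co2, mt-Co3, mt-Atp6 and mt-Atp8 stayed above 0, at 0.58, 0.37, 0.44, 0.55 and 1.13, and lost their calls (adjusted p = 0.307, 0.444, 0.349, 0.255 and 0.0981, edgeR), while mt-Rnr1 at 0.97 gained one (adjusted p = 0.0141, edgeR).

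The wild-type groups were themselves unlike each other, which bears on any level set across the models. Of the 8 genes 6 were lower in the Prepl wild types than in the PWS-IC wild types. That is against a background of 1624 lower calls among 13756 genes tested, 11.8%. The log2 differences were -0.55 ± 0.0736 for mt-Co3, -0.52 ± 0.0749 for mt-Co2, -0.48 ± 0.0732 for mt-Atp6, -0.46 ± 0.0862 for mt-Rnr2 and -0.43 ± 0.0959 for mt-Rnr1 (adjusted p of 0.00237 or below, edgeR). mt-Atp8 differed by -0.30 ± 0.0886 (adjusted p = 0.0154, edgeR), but not without replicate 3 or 4 of the Prepl wild types or replicate 1 of the PWS-IC wild types (-0.29, -0.25 and -0.27, adjusted p = 0.0514, 0.0694 and 0.0555) or when sex was added to the 16-library fit (-0.27, adjusted p = 0.0628, edgeR). With reads outside genes, as a share, for a covariate, mt-Co3, mt-Rnr1 and mt-Rnr2 stayed called, and mt-Co2, mt-Atp6 and mt-Atp8 did not (-0.48, -0.36 and -0.61, adjusted p = 0.0914, 0.196 and 0.0714, edgeR). mt-Cytb was not called between the wild types, at -0.07 ± 0.0745 (adjusted p = 0.552, edgeR). Colony, housing and the day of preparation are not given, so they and the wild-type group cannot be told apart.

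In the order of its group means, mt-Cytb was highest in Prepl knockouts (13086 ± 1472 CPM) and lowest in PWS-IC deleted mice (6286 ± 245 CPM). The wild types lay between, at 8071 ± 435 CPM for Prepl and 8185 ± 809 CPM for PWS-IC, within their spread of each other. mt-Atp6 paired the groups another way: Prepl knockouts at 5798 ± 731 CPM and PWS-IC wild types at 5768 ± 444 CPM were alike within their spread, and so were Prepl wild types at 4271 ± 162 CPM and PWS-IC deleted mice at 4195 ± 259 CPM. mt-Co2 was lowest in Prepl wild types at 3276 ± 185 CPM, while Prepl knockouts at 4511 ± 404, PWS-IC deleted mice at 4182 ± 213 and PWS-IC wild types at 4552 ± 300 CPM overlapped. mt-Co1 was lowest in PWS-IC deleted mice at 1717 ± 226 CPM, below the 2124 ± 152 to 2374 ± 167 CPM of the other groups. mt-Co3 was lowest in Prepl wild types at 2965 ± 91.4 CPM and highest in PWS-IC wild types at 4196 ± 315 CPM, with PWS-IC deleted mice at 3367 ± 286 and Prepl knockouts at 3594 ± 247 CPM overlapping between them. For both rRNAs the PWS-IC wild types were highest, at 14122 ± 1703 CPM for mt-Rnr1 and 45611 ± 5062 CPM for mt-Rnr2. The other 3 group means lay at 10638 to 10854 CPM for mt-Rnr1 and 34244 to 37047 CPM for mt-Rnr2, within their spread. mt-Atp8 was lowest in PWS-IC deleted mice at 92.3 ± 18.9 CPM, and the other 3 groups averaged 148 ± 14.6 to 176 ± 11.8 CPM (SD, n = 4 for each mean).

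Summed, the 6 mRNAs took 2.95% ± 0.287 of the reads in genes in Prepl knockouts and 2.09% ± 0.0824 in their wild types. They took 1.98% ± 0.113 in PWS-IC deleted mice and 2.52% ± 0.112 in their wild types. The rRNAs took 4.56% ± 0.542 in Prepl knockouts and 4.51% ± 0.639 in their wild types, and 4.77% ± 0.269 in PWS-IC deleted mice and 5.97% ± 0.676 in their wild types (SD, n = 4). There were 0.579 to 0.863 mRNA reads per rRNA read in Prepl knockouts and 0.368 to 0.515 in their wild types, so the ranges were apart. In PWS-IC deleted mice the ratio was 0.412 to 0.424, inside the 0.354 to 0.488 of their wild types. Within the 6 mRNAs, mt-Cytb supplied 44.3% ± 1.15 of the reads in Prepl knockouts and 38.7% ± 0.745 in their wild types. Its share was 31.7% ± 1.26 in PWS-IC deleted mice and 32.4% ± 2.75 in their wild types. mt-Co2 supplied 21.1% ± 0.523 in PWS-IC deleted mice and 18.0% ± 0.564 in their wild types. These sums are descriptions with no test, and any reads lost to nuclear copies of mt-Co1, mt-Co2, mt-Co3 and mt-Atp6 are missing from them.

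**Figure D3:**
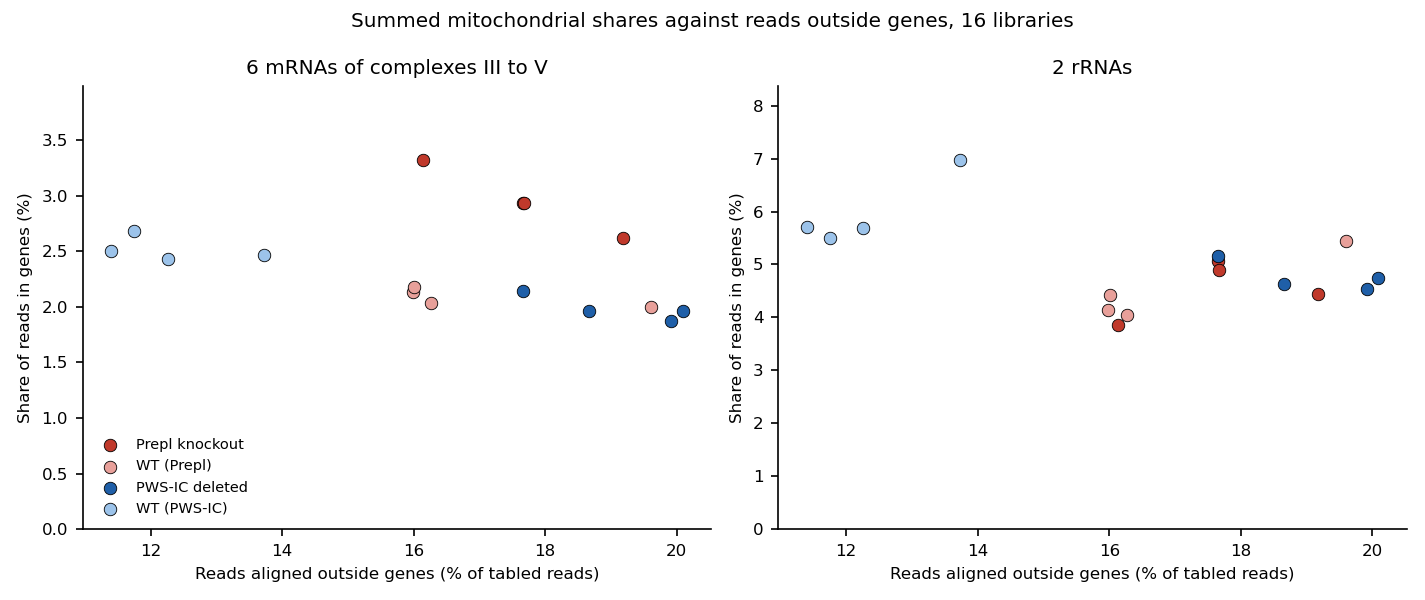
Summed share of the reads in genes (%) taken by the 6 mRNAs (left) and the 2 rRNAs (right), against the share of tabled reads that aligned outside genes (%), 1 point per library. Prepl knockouts lie above their wild types on the left and among them on the right; PWS-IC deleted libraries have the lower mitochondrial shares and the higher shares outside genes, 17.7% to 20.1% against 11.4% to 13.7% in their wild types.

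Ratios of 2 transcripts inside 1 library do not depend on how libraries are scaled. Any reads lost to nuclear copies are missing from them, to an unknown extent. The 5 ratios in both models gave 10 comparisons, each by an exact two-sided permutation test over 70 assignments, whose smallest p is 0.0286. None passed 0.05 after Benjamini-Hochberg adjustment over the 10. With that smallest p, a ratio can pass only if most of the 10 comparisons reach it, so the miss says little about any 1 ratio. The log2 ratio of mt-Cytb to mt-Rnr2 was -1.41 ± 0.300 in Prepl knockouts and -2.08 ± 0.248 in their wild types (SD, n = 4, exact p = 0.0286, adjusted 0.0952), with no overlap. In PWS-IC deleted mice it was -2.56 ± 0.0749 and in their wild types -2.48 ± 0.290 (exact permutation p = 0.6, adjusted 0.667). That difference of -0.08 was -0.22 without replicate 1 of the wild types and -0.01 without replicate 2, so its size rests on single libraries; it was -0.02 without replicate 4 of the wild types and -0.05 without replicate 2 of the deleted mice. mt-Co1 to mt-Co2 was lower by 0.30 in Prepl knockouts, higher in each of their wild types than in any knockout, and by 0.35 in PWS-IC deleted mice (exact p = 0.0286 and 0.0571, both 0.0952 adjusted). mt-Atp8 to mt-Atp6, 2 frames of 1 mRNA, was -5.53 ± 0.241 in PWS-IC deleted mice and -5.03 ± 0.0970 in their wild types, with no overlap (exact permutation p = 0.0286, adjusted 0.0952). In Prepl knockouts the same ratio was -5.07 ± 0.211 and in their wild types -4.86 ± 0.195, which overlapped (exact permutation p = 0.257, adjusted 0.321). That difference of -0.21 was -0.12 without replicate 1 of the wild types and -0.11 without replicate 4 of the knockouts. mt-Co3 to mt-Atp6 differed by -0.16 in the Prepl and 0.14 in the PWS-IC comparison, and mt-Rnr1 to mt-Rnr2 by -0.02 and -0.11, all with overlap (adjusted p from 0.0952 to 0.771, exact permutation tests).

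**Figure D4:**
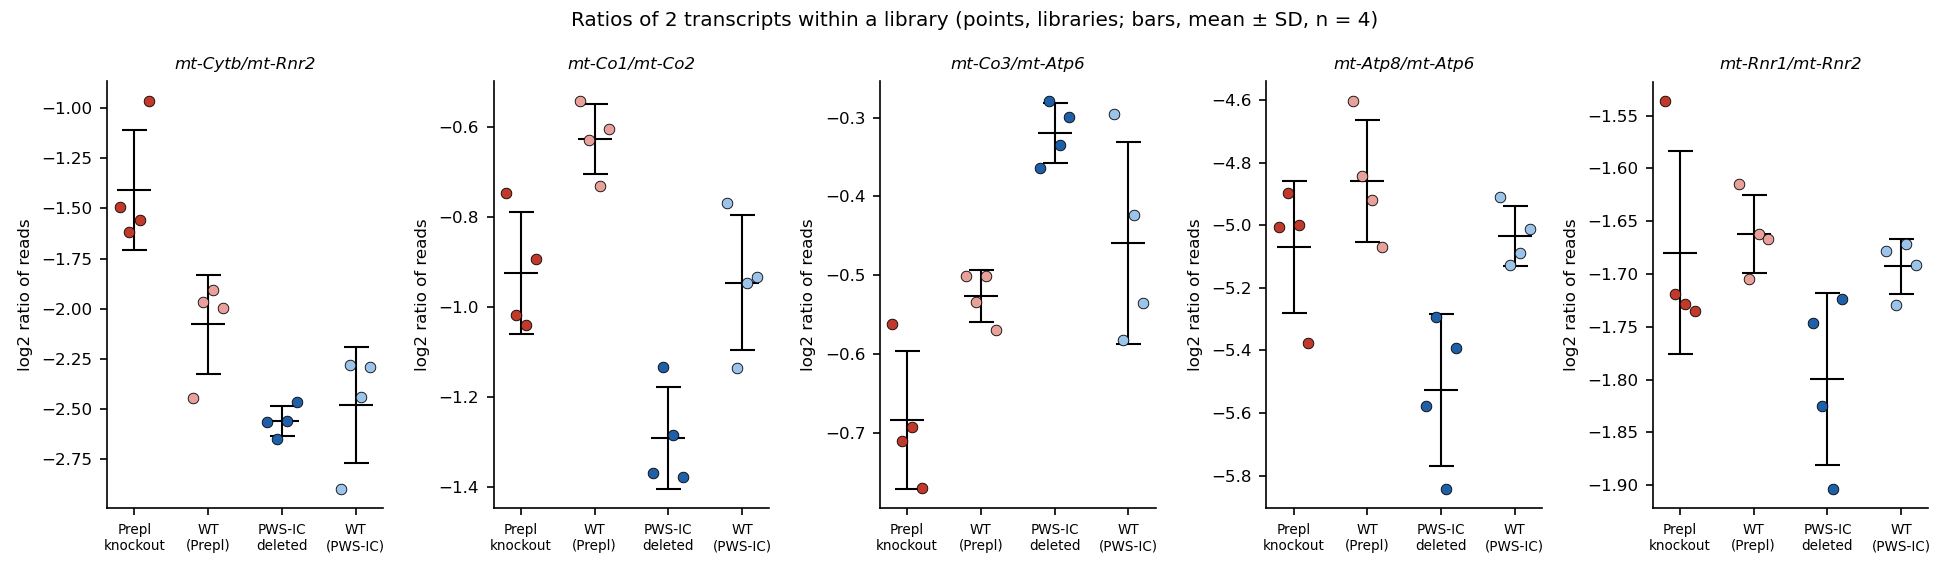
Log2 ratios of the reads of 2 mitochondrial transcripts within each library, 1 panel per ratio with its own axis. Points are libraries and bars the mean and SD over 4. mt-Cytb to mt-Rnr2 is higher in every Prepl knockout library than in its wild types, and mt-Atp8 to mt-Atp6 is lower in every PWS-IC deleted library than in its wild types.

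The mitochondrially encoded complex I mRNAs, from the same precursors, gave 2 higher of 7 in Prepl knockouts, mt-Nd1 at 0.47 ± 0.0761 and mt-Nd3 at 0.38 ± 0.0767 (adjusted p = 0.00376 and 0.0275, edgeR), beside 0.189% of all genes tested called higher. With a sex term in the Prepl comparison alone, which leaves 1 male wild type, they were at 0.38 and 0.39. Neither was called with that term in the fit of 16 libraries (0.35 and 0.27, adjusted p = 0.0693 and 0.22, edgeR). mt-Nd3 also lost its call in 1 fit of 16 (adjusted p = 0.0794), with nuclear copies added (adjusted p = 0.089), without replicate 2 or 3 of the wild types (adjusted p = 0.115 and 0.106) and without replicate 2, 3 or 4 of the knockouts (adjusted p = 0.142, 0.139 and 0.0819, edgeR). In PWS-IC deleted mice 5 of 7 were lower, among them mt-Nd4l at -1.44 ± 0.123 and mt-Nd4 at -0.67 ± 0.0792 (adjusted p = 4.56e-07 and 4.98e-05, edgeR). The other called ones were mt-Nd2 at -0.61, mt-Nd5 at -0.48 and mt-Nd1 at -0.42, beside 1.55% of all genes tested called lower. With reads outside genes, as a share, for a covariate, which left 4 calls among all genes tested, none of the 5 was called (adjusted p = 0.999 for each, edgeR) and mt-Nd2 changed sign, at 0.0784. mt-Nd6, the single mRNA read from the other strand, was at 0.06 ± 0.185 in the Prepl and 0.49 ± 0.167 in the PWS-IC comparison (adjusted p = 0.959 and 0.0999, edgeR). Its values are given because of that strand, a choice made after they were seen.

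Nuclear genes of the same complexes were set beside the share of all genes tested that were called. Of the nuclear subunits tested in the Prepl comparison, 0 of 9 for complex III, 0 of 14 for complex IV and 0 of 18 for complex V were called by edgeR. At an unadjusted p under 0.05 there were 0, 0 and 2. With 0.189% of all genes tested called higher and 0.0729% lower, counts of 0 in lists of this size are no result about their members. The share of all genes tested at that unadjusted p was not worked out for either comparison. Counts at that p, here and for the lists below, are therefore no result about their members. In the PWS-IC comparison 5 of 9, 3 of 13 and 8 of 18 had an unadjusted p under 0.05, and 1 of each list was called. Over all genes tested 4.52% were called in either direction, so 1 call in lists of this size is no result about their members. Of the called genes, Uqcrfs1, the Rieske iron-sulphur subunit of complex III, rose by 0.36 ± 0.0913 as 1 of 9 (adjusted p = 0.0267, edgeR), beside 2.96% of all genes tested called higher. Cox8a, a small subunit of cytochrome oxidase, was lower as 1 of 13, at -0.36 ± 0.0999 (adjusted p = 0.0448, edgeR), beside 1.55% of all genes tested called lower. Atp5k of ATP synthase rose by 0.34 ± 0.0907 as 1 of 18 (adjusted p = 0.0351, edgeR), beside the 2.96% called higher. All 3 calls were lost with reads outside genes, as a share, for a covariate (adjusted p = 0.999 for each, edgeR) and without single libraries. Those were replicates 1, 3 and 4 of the wild types or 1 and 2 of the deleted mice for Uqcrfs1 (adjusted p = 0.0555, 0.102, 0.0808, 0.103 and 0.069, edgeR). For Cox8a they were replicates 2, 3 and 4 of the wild types or 1, 3 and 4 of the deleted mice (adjusted p = 0.105, 0.0675, 0.0868, 0.128, 0.119 and 0.0875, edgeR), and for Atp5k replicates 3 and 4 of the wild types or 1 and 2 of the deleted mice (adjusted p = 0.122, 0.0826, 0.107 and 0.105, edgeR). The medians of the 3 lists lay between -0.06 and 0.07 in both comparisons. The largest departures by p in the Prepl comparison were Uqcrq at -0.13, Cox8a at -0.08 and the ATP synthase c-subunit gene Atp5g2 at 0.39 (adjusted p = 0.605, 0.754 and 0.25, edgeR), none of them called.

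Among assembly factors of complexes III to V, 0 of 27 tested were called in either comparison, with 2 in the Prepl and 1 in the PWS-IC comparison at an unadjusted p under 0.05 (edgeR). The smallest p belonged to Cox15, which makes haem a for complex IV, at -0.51 ± 0.149 in Prepl knockouts (adjusted p = 0.211, edgeR). In PWS-IC deleted mice it belonged to the copper chaperone Sco1 at 0.40 ± 0.173 (adjusted p = 0.213, edgeR). Of the genes that make, cut or degrade mitochondrial RNA, 0 of 29 tested were called in either comparison, with 1 and 2 at an unadjusted p under 0.05. Beside the shares of all genes tested that were called (0.189% higher and 0.0729% lower for Prepl, 2.96% and 1.55% for PWS-IC), a count of 0 in lists of this size says nothing particular about them. The nearest were the oligoribonuclease Rexo2 at -0.29 ± 0.104 in Prepl knockouts and Tbrg4, a FASTK family RNA-binding protein, at 0.47 ± 0.144 in PWS-IC deleted mice (adjusted p = 0.341 and 0.0655, edgeR).

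Over the 16 libraries, likeness was measured as the root mean square difference of log2(CPM + 1), each gene centred on its own mean, among 14471 genes. The rRNAs were nearest to each other at 0.0790. Next came the kinase gene Map3k2 for mt-Rnr1 at 0.142 and Mrpl1, a mitochondrial ribosomal protein gene, for mt-Rnr2 at 0.122. mt-Atp6 was nearest to mt-Nd1 at 0.0875 and then to mt-Co3 at 0.149. mt-Co2 and mt-Co3 shared both neighbours: the imprinted gene Nnat at 0.0960 and 0.111, and mt-Nd3 at 0.109 and 0.104. mt-Cytb, mt-Co1 and mt-Atp8 had no mitochondrial gene among their nearest pair. For mt-Cytb those were Mmachc, which processes vitamin B12, at 0.175 and the tyrosine phosphatase gene Ptpn21 at 0.201. For mt-Co1 they were the reductase gene Dhrs1 at 0.120 and the tyrosine phosphatase gene Ptpn1 at 0.130. For mt-Atp8 they were Dad1, of the complex that adds N-glycans, at 0.203 and the actin regulator Wasf2 at 0.215. These distances describe these libraries, which share groups and preparation, and carry no test.

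Few reads were assigned to the nuclear copies of mt-Co1, mt-Co2, mt-Co3 and mt-Atp6 beside their mitochondrial originals. Gm28661, identical to mt-Co2 over its matched bases, averaged 47.1 ± 9.75 CPM in Prepl knockouts and 28.5 ± 2.89 CPM in their wild types, and rose by 0.76 ± 0.125 (adjusted p = 0.00423, edgeR). It was not called in 1 fit of 16 libraries (0.76, adjusted p = 0.37) or with a sex term in that fit (0.46, adjusted p = 0.494, edgeR). With a sex term in the Prepl comparison alone, which leaves 1 male wild type, it was at 0.59. In the PWS-IC comparison it averaged 40.0 ± 3.45 CPM in deleted mice and 56.4 ± 36.6 CPM in wild types and was not called (adjusted p = 0.349, edgeR). Gm10925, Gm28437, Gm29216, Gm13340 and Gm13341 were not called in either mutant comparison, with values of 0.37 to 0.92 in the Prepl and -1.31 to -0.07 in the PWS-IC comparison on the log2 scale. Without a filter on low counts Gm10925, Gm13341, Gm28437 and Gm29216 were called higher in Prepl knockouts (adjusted p = 0.00232, 0.000112, 5.78e-25 and 0.0365, edgeR). In PWS-IC deleted mice that setting called Gm28437, Gm28661 and Gm29216 lower (adjusted p = 8.01e-36, 0.00204 and 0.00283, edgeR). Each gene named for that setting had overlapping groups in the same comparison. Gm28437 ran from 48.3 to 123 CPM in deleted mice and from 52.6 to 324 CPM in wild types. Its SE was 0.10 without the filter and 0.43 with it, and 0.083 and 0.26 in the Prepl comparison. Its unfiltered p-values therefore do not reflect the spread between libraries. A replicate block also called Gm28437 in both comparisons (adjusted p = 0.0077 and 0.00535) and Gm29216 in the PWS-IC one (adjusted p = 0.0333, edgeR). A sex term called both in the PWS-IC comparison (adjusted p = 0.0259 and 0.0232, edgeR). With the reads assigned to copies added to their genes, the calls of the 8 genes were the same in both comparisons, and mt-Co3 was at 0.33 in the Prepl and -0.34 in the PWS-IC comparison. Reads with more than 1 alignment were counted for no gene, so this step could not restore reads shared with an identical copy. It therefore does not settle how far copies affect these counts.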

How the data were processed

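The submitters deposited 1 table of read counts per gene for each of 16 libraries, made with HISAT2 and HTSeq on mm10 per the submitters' processing notes, from total RNA with poly(A)-capture 3′ libraries per the labels' protocols. The annotation, strand setting and treatment of overlapping genes do not appear in the sources used here. Rows that name no gene held 53.6% to 61.9% of tabled reads and stayed out of library sizes and tests. Replicates differed beyond sampling noise (chi-square per degree of freedom of at least 2.52). From the deposited counts, CPM and edgeR 4.0.16 fits (R 4.3.3; filterByExpr, TMM, quasi-likelihood, Benjamini-Hochberg over all genes, threshold 0.05) were computed, each mutant against its own wild types, and checked on simulated counts. SE is the absolute log2 fold change over the square root of F. Alternatives used DESeq2 1.42.0 and limma 3.58.1. Copies were sought with BLAST 2.17.0 among GENCODE M21 transcripts (GRCm38). The 8 genes and all lists were chosen with earlier results of these data known. Named genes are the 8, the altered genes, called list members (or the smallest p), nuclear copies averaging at least 1 CPM and the 2 nearest in pattern. In a list with over 6 called members the 6 smallest p would be named. Replicate numbers were not taken as pairs in the main fits.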

Additional observations from a re-analysis of the deposited data

Results flagged for a closer look

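In 9 of 60 sets of 4 libraries examined, 1 library stood further from the other 3 than Dixon's 95% limit allows, which chance does in about 1 set in 20. The sets share genes and libraries, so the count of 9 cannot be read as an excess over that rate. Replicate 1 of the PWS-IC wild types was highest for mt-Co1 at 2664 CPM (the others 2259 to 2269.8 CPM), for mt-Rnr2 at 53155.5 CPM (42315 to 43646 CPM) and for the summed rRNA share at 6.98% (5.51% to 5.72%). Replicate 2 of that group was highest for mt-Atp6 at 6429 CPM (5485 to 5609 CPM). In PWS-IC deleted mice, replicate 2 was highest for mt-Co2 at 4499.8 CPM (4049.9 to 4098 CPM), and replicate 1 was lowest for mt-Cytb at 5922 CPM (6364 to 6445 CPM). Among Prepl knockouts, replicate 4 was lowest for mt-Rnr1 at 8897 CPM (11332 to 11806 CPM) and replicate 1 was highest for the log2 ratio of mt-Rnr1 to mt-Rnr2 at -1.54 (-1.74 to -1.72). Replicate 1 of the Prepl wild types was lowest for the log2 ratio of mt-Cytb to mt-Rnr2 at -2.45 (-1.99 to -1.90).

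The mutant effects differed by the contrast over 16 libraries (Prepl effect minus PWS-IC effect, log2 scale) for mt-Cytb by 1.10, mt-Atp8 by 1.18, mt-Atp6 by 0.93, mt-Co1 by 0.65, mt-Co3 by 0.62 and mt-Co2 by 0.61.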

How the results depend on the processing

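RLE factors, DESeq2, limma voom, scaling without mitochondrial genes and adding nuclear copies left the number of the 8 genes called at 4 for Prepl, 7 for PWS-IC and 6 for their difference. Between the wild types it was 6, or 7 with DESeq2 or voom. For Prepl the number was 3 in 1 fit of 16 libraries, 2 with a sex term in that fit (chosen after the data had been seen) and 3 to 4 leaving out a library. No count is given for a sex term in the Prepl comparison alone, which leaves 1 male wild type. Over all genes tested, Prepl calls were 36, but 156 without a filter, 18 in 1 fit of 16, 61 with reads outside genes (as a share) as a covariate and 12 to 103 leaving out a library. Those calls came to 103 without wild-type replicate 1, 12 without 2 and 22 without 3, and to 23, 16 and 17 without knockout replicates 1, 2 and 4. PWS-IC calls were 616, but 945 without a filter, 999 in 1 fit of 16, 1119 with a sex term, 1233 with that term in the fit of 16 and 362 to 653 leaving out a library (362 without deleted replicate 1, 394 without wild-type replicate 3). Of the 8 genes 5 to 7 were called then. Calls of the difference were 112, but 222 without a filter (8 of the 8 genes), 195 with DESeq2, 235 with a sex term and 67 to 134 leaving out a library (67 and 73 without Prepl wild-type replicates 2 and 3, 74 without knockout replicate 3), with 6 to 8 of the 8 genes.

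The covariate of reads outside genes left 4 PWS-IC calls, 0 of them among the 8 genes, 14 calls of the difference with 2 of the 8 genes (mt-Cytb and mt-Rnr1), and 221 between the wild types with 3 of the 8. It turned the sign of mt-Rnr1 in Prepl (-0.0391), of mt-Cytb between wild types (0.22) and, in PWS-IC, of mt-Cytb (0.17), mt-Co2 (0.12), mt-Nd2 (0.0784), Cox8a (0.41), Sco1 (-0.76), Tbrg4 (-0.0683), Gm10925 (0.79) and Gm13341 (1.89). The cause was not tested, but the covariate separates the PWS-IC groups, and also the wild-type groups from each other. The sex term in the fit of 16 turned mt-Rnr1 (-0.035) and mt-Rnr2 (-0.014) in Prepl. Leaving out a library gave mt-Rnr1 -0.0281 to 0.16, mt-Rnr2 -0.0065 to 0.16, Gm10222 -0.0486 to 0.82 and the log2 ratio of mt-Rnr1 to mt-Rnr2 -0.0654 to 0.0009 in Prepl, and Gm28661 -0.68 to 0.0705, Gm13341 -0.62 to 0.23 and Gm28438 -0.11 to 0.11 in PWS-IC. Gm28438 (0.0069 in PWS-IC) was also at -0.0144 without a filter, -0.0194 with voom, -0.0139 with a sex term and -0.0058 with that term in the fit of 16.

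Replicate numbers were not taken as pairs: same-numbered deviations correlated at -0.06 to 0.06 in Prepl and -0.03 to 0.17 in PWS-IC. In both PWS-IC groups replicates 1 and 2 were male and 3 and 4 female, so the number goes with sex there. Whether same-numbered PWS-IC libraries are matched cannot be told from these values. With a replicate block, 3 of the 8 genes were called in Prepl (not mt-Co3, adjusted p = 0.0533, edgeR) and 7 in PWS-IC, where 989 genes were called and Gm28438 was at -0.0138. The block left 6 of the 8 called for the difference and between wild types.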

Other observations

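Among annotated nuclear copies of the mitochondrial complex I genes, Gm13339 averaged 45.1 CPM in Prepl knockouts and rose by 0.77 ± 0.151 on the log2 scale (adjusted p = 0.0262, edgeR). It was not called in 1 fit of 16 libraries (0.77, adjusted p = 0.255) or with a sex term in that fit (0.72, adjusted p = 0.233, edgeR). Nor was it called without replicate 2 of the wild types (0.69, adjusted p = 0.137) or without replicate 2, 3 or 4 of the knockouts (0.66, 0.68 and 0.79, adjusted p = 0.12, 0.129 and 0.0621, edgeR). With a sex term in the Prepl comparison alone, which leaves 1 male wild type, it was at 0.86. In PWS-IC deleted mice it was not called, at -0.69 ± 0.266 (adjusted p = 0.157, edgeR). Without a filter on low counts Gm13339 was called lower in PWS-IC deleted mice (-0.71, adjusted p = 0.00247, edgeR), although its groups overlapped. Gm28439 fell by 0.85 in PWS-IC deleted mice (SE 0.236, adjusted p = 0.0436, edgeR) and was at 0.32 ± 0.182 in Prepl knockouts (adjusted p = 0.605, edgeR). The PWS-IC call of Gm28439 was lost with DESeq2 (adjusted p = 0.055), limma voom (adjusted p = 0.0587), reads outside genes, as a share, for a covariate (adjusted p = 0.999, edgeR), and without replicate 1, 3 or 4 of the wild types (adjusted p = 0.149, 0.0675 and 0.0652, edgeR) or any 1 of the deleted replicates (adjusted p = 0.116, 0.0598, 0.111 and 0.0579, edgeR). Gm28438, with 224 CPM in Prepl knockouts and 409 CPM in PWS-IC deleted mice, was at 0.15 ± 0.121 and 0.01 ± 0.123 on the log2 scale against their wild types (adjusted p = 0.74 and 0.985, edgeR). Gm10222 was tested in the Prepl comparison, at 0.25 ± 0.410 (adjusted p = 0.901, edgeR). Gm4076 on chromosome 13, which matches mt-Nd5 at 95.2%, averaged 1.32 CPM over the 16 libraries and was not among the genes tested in either mutant comparison.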
